A study of Mus musculus with 10 samples.

Results

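The endothelin system of the mouse left ventricle was examined through 6 genes, chosen by their symbols: the ligand genes Edn1 and Edn3, the receptor genes Ednra and Ednrb, and the converting enzyme genes Ece1 and Ece2. These are 6 of 29564 genes listed, and all 6 were among the 13300 genes tested, with counts in every mouse. The family was taken up because Edn3 was higher in HFD+mTAC mice, so the difference in Edn3 is given as a description without a test, whereas the other 5 genes were tested. RNA of left ventricles from 5 Control mice (non-failing) and 5 HFD+mTAC mice was compared. All were wild-type C57BL6 mice, males of C57BL/6J per the study's methods. The labels give vehicle as the treatment of both groups, but the sample titles name vehicle in the HFD+mTAC group alone. The protocol, daily vehicle (5% DMSO, 45% PEG-300 and 50% water) at 10 mL/kg, also names HFD+mTAC mice. Its span of 6 to 9 weeks covers different study designs, so the dosing time of these mice is not known. HFD+mTAC mice received a high-fat diet and moderate transverse aortic constriction, surgery that constricts the aortic arch so that the ventricle ejects against a higher pressure. Control mice had neither, and ate standard chow. High-fat diet and operation always came together, so their effects cannot be told apart, and where Control mice were not dosed, neither can that of the vehicle.

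Endothelins are short peptides, each closed into loops by disulfide bonds, that are cut from longer precursors. Furin-like proteases release an inactive intermediate, big endothelin, and the endothelin converting enzymes cut it after a tryptophan to give the active peptide. Endothelin 1, made chiefly by endothelial cells, is a strong vasoconstrictor and a growth signal for cardiomyocytes. The receptor ETA, encoded by Ednra, binds endothelin 1 far more tightly than endothelin 3, whereas ETB, encoded by Ednrb, binds both alike and also clears endothelin from the circulation. Endothelin 3 is best known for its action through ETB on neural crest cells, from which melanocytes and enteric neurons arise.

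The ligand genes are shown at the stretch that encodes the active peptide, to show how the active product of the gene that was higher in HFD+mTAC mice differs from endothelin 1. Edn1 (ENSMUSG00000021367.8) lies on the plus strand of GRCm38 at chr13:42301476-42307990 and Edn3 (ENSMUSG00000027524.9) on the plus strand at chr2:174760619-174784042. Both stretches lie in exon 2, at chr13:42303649-42303711 (codons 53 to 73 of 202) and chr2:174761749-174761811 (codons 97 to 117 of 214), and are copied from the GENCODE M21 transcripts. Capitals mark the codons of the 4 cysteines that form the disulfide bonds and of the last tryptophan, after which the converting enzymes cut.
Edn1: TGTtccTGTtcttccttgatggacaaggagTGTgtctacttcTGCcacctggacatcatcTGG
Edn3: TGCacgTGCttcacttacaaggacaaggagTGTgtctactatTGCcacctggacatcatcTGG
The stretches were identical at 50 of 63 bases (79.4%), and 15 of 21 codons encoded the same residue. The 250 bases before the start site of Edn3 (RefSeq, GRCm38.p6, plus strand, chr2:174760369-174760618) are shown because Edn3 was the gene that differed most among the members, with capitals at E-box motifs (CANNTG, searched on both strands, each letter N standing for any base).
Edn3 promoter: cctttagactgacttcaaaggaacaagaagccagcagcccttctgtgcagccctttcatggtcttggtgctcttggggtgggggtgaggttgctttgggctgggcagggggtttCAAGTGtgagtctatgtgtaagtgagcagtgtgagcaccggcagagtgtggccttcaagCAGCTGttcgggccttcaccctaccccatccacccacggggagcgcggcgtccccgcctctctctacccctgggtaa
This window held 2 E-boxes, a motif that 66.2% of 32851 RefSeq promoter windows of the same length hold, and had a GC content of 59.2%. It held no match to the AP-1 motif TGANTCA (6.75% of windows), the GATA motif AGATAA (9.99%), the hypoxia response core ACGTG (16.6%), the Sp1 motif GGGCGG (32.7%) or the NFAT motif GGAAA (55.6%).

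Each mouse had 34.2 to 53.7 M estimated counts, and nuclear protein-coding genes received 12.7 to 21.1 M. Mitochondrially encoded genes took up 43.8 to 50.9% of the counts in Control and 46.4 to 52.7% in HFD+mTAC mice. TPM levels and sums are given as deposited, without removal of the mitochondrially encoded genes. Cardiomyocyte markers (Myh6, Tnnt2, Actn2, Ryr2, Myl2, Tnni3, Ttn) summed to 13732 to 19536 TPM per mouse, and the atrial markers Myl4, Myl7, Sln and Bmp10 to 0.839 to 2.51 TPM. No sequencing batch is named in the labels.

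Edn3, the endothelin 3 gene, was the member whose level differed between the groups. Its normalized read count, here counts rescaled so that all libraries had the same size (CPM), was 3.31, 4.52, 5.93, 5.78 and 4.01 in the Control group, in order of mouse number from TT-583 to TT-587. It reached 11.8, 9.44, 12.4, 12.4 and 12.4 in the HFD+mTAC group, from TT-588 to TT-592. The groups did not overlap, with all HFD+mTAC values the higher ones, a pattern that 1.08% of all genes tested showed, which is given as a description because this contrast chose the gene. The lowest HFD+mTAC mouse, TT-589, still exceeded the highest Control mouse, TT-585. The means were 4.71 ± 1.13 and 11.7 ± 1.28 CPM (SD, n = 5 each), a fitted fold of 2.48 (log2 fold change 1.31, SE 0.18). These values rest on 51 to 121 estimated counts per Control mouse and 156 to 202 per HFD+mTAC mouse. Edn3 was thus a gene of low abundance, with 30.9% of tested genes below its mean CPM. A log2 fold change at or above that of Edn3 was reached by 59 of 13300 genes tested, Edn3 itself among them.

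Edn1, the gene of the main cardiac endothelin, did not show this difference. Its level was 9.94, 9.62, 8.97, 13.5 and 10.2 CPM in Control mice, and 11.5, 13.0, 6.69, 12.7 and 11.5 CPM in the HFD+mTAC group. The groups overlapped, with the lowest and the second highest of the 10 values both in HFD+mTAC mice. The log2 fold change was 0.09 (SE 0.18, 95% interval -0.31 to 0.49, adjusted p = 0.938 from edgeR's quasi-likelihood test, with the Benjamini-Hochberg method applied to all genes tested). An increase to 1.40-fold or a decrease to 0.809-fold lies within this interval. The sign was not stable either, as the log2 fold change was -0.035 with effective transcript lengths as an offset. The gene of endothelin 2, Edn2, had 0 to 4 estimated counts per mouse and was not tested.

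**Figure D1:**
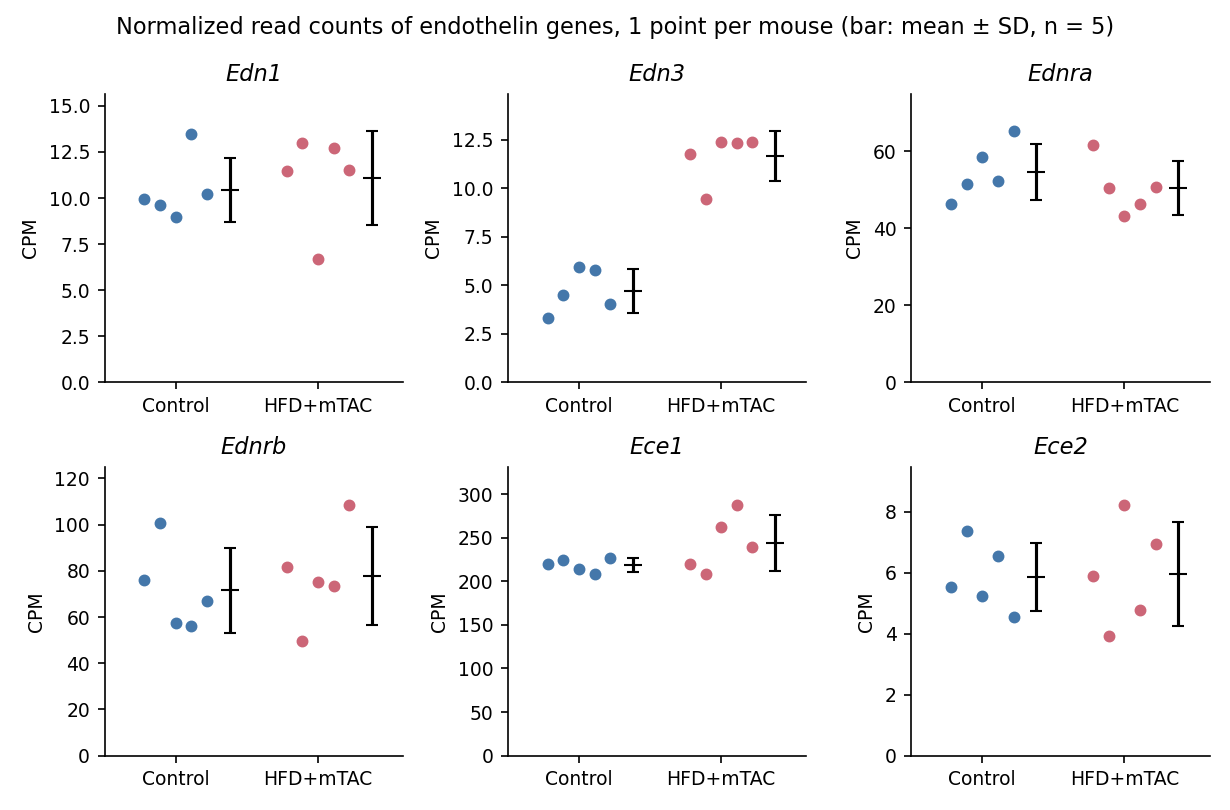
Normalized read counts (CPM, linear axes from 0) of the 6 endothelin genes in each Control mouse (blue) and HFD+mTAC mouse (red), in order of mouse number, with the mean and SD of 5 mice as black bars. The Edn3 values of the groups do not overlap (3.31 to 5.93 and 9.44 to 12.4 CPM), whereas those of the other 5 genes do.

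The receptor genes overlapped between the groups. Ednra (chr8:77663031-77724464, minus strand), the gene of ETA, had 46.3, 51.4, 58.4, 52.2 and 65.2 CPM in Control mice, and 61.6, 50.5, 43.2, 46.4 and 50.7 CPM in the HFD+mTAC group. Its log2 fold change was -0.11 (SE 0.11, 95% interval -0.36 to 0.13, adjusted p = 0.86 from edgeR). Ednrb (chr14:103814625-103844402, minus strand), the gene of ETB, had 76.2, 101, 57.5, 56.1 and 67.0 CPM in Control mice, and 81.9, 49.8, 75.3, 73.3 and 109 CPM in the HFD+mTAC group. Ednrb varied more from mouse to mouse than Ednra, with a coefficient of variation of 25.6% in Control and 27.1% in HFD+mTAC mice against 13.3 and 13.8%. The log2 fold change of Ednrb was 0.12 (SE 0.20, 95% interval -0.31 to 0.55, adjusted p = 0.923 from edgeR). At this spread, a rise of ETB transcripts to 1.47-fold or a fall to 0.805-fold would lie within the interval.

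The converting enzyme genes did not pass the test. Ece1 (chr4:137862237-137965229, plus strand), whose product cuts big endothelins at the cell surface and inside the cell, had 220, 225, 215, 208 and 227 CPM in Control mice. In HFD+mTAC mice it had 220, 208, 263, 288 and 239 CPM. The Control mice were tightly grouped (219 ± 7.68 CPM, SD, n = 5), and 3 of 5 HFD+mTAC mice (244 ± 32.1 CPM) lay above all of them. Its log2 fold change was 0.16 (SE 0.09, 95% interval -0.05 to 0.36, adjusted p = 0.712 from edgeR), the smallest adjusted p of the 5 genes tested. Ece2 (chr16:20629828-20646485, plus strand), which encodes a related enzyme active at acidic pH, had 5.52, 7.36, 5.24, 6.56 and 4.56 CPM in Control mice, and 5.89, 3.93, 8.23, 4.78 and 6.94 CPM in the HFD+mTAC group. The highest and the lowest of the 10 Ece2 values both came from HFD+mTAC mice. The log2 fold change of Ece2 was 0.02 (SE 0.22, 95% interval -0.45 to 0.49, adjusted p = 0.992 from edgeR). Ece2 overlaps a protein-coding gene on the same strand, Gm49333, which is not among the genes listed, so the assignment of reads from the overlap is uncertain. Edn1, Ednra and Ece1 overlap annotated genes on the opposite strand, which are not among the genes listed either. Whether the quantification used strand is not given in the sources used here.

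Of the 5 genes tested, 0 were called by edgeR at an adjusted p under 0.05, where 0.0602% of all genes tested (8 of 13300) were called, 0.0451% as higher and 0.015% as lower in HFD+mTAC mice. At an unadjusted p under 0.05 it was also 0 of 5, beside 8.26% of all genes, and in 0 of 5 were the groups without overlap, beside 1.96% of all genes in either direction. DESeq2, which called 120 genes in all, called 0 of these 5. Log2 fold changes of 4 of the 5 were above 0, as were those of 50.3% of all genes tested. Their median was 0.09, beside 0.0016 over all genes. In whole tissue, fewer cells of a type and less RNA per cell cannot be told apart, so none of these levels can be assigned to a cell type.

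Compared with each other on the TPM scale, which corrects for transcript length, the members ranked by mean in the same order in both groups. Part of this order depended on that correction. Mean levels in Control and HFD+mTAC mice were 11.8 and 12.1 TPM for Ece1, 2.47 and 2.36 TPM for Ednrb, and 1.89 and 1.56 TPM for Ednra. Lower down stood Ece2 with 0.847 and 0.812 TPM, Edn1 with 0.736 and 0.666 TPM, and Edn3 with 0.118 and 0.320 TPM. Ece1 exceeded Ednrb in every mouse, with ranges apart in both groups. Ednrb exceeded Ednra in 3 of 5 Control and 4 of 5 HFD+mTAC mice, and Ece2 exceeded Edn1 in 3 of 5 mice of each group, so neither order was firm. Ednra exceeded Ece2, and Edn1 exceeded Edn3, in all 5 mice of each group, with ranges that were apart in Control mice and overlapped in HFD+mTAC mice. In CPM per kilobase of the longest annotated transcript, mean Edn1 instead lay above mean Ece2 in Control (4.88 against 1.70) and HFD+mTAC mice (5.18 against 1.73). Mean Edn3 then lay below Ece2 in Control mice (1.51) and above it in HFD+mTAC mice (3.75). The order of Ece2, Edn1 and Edn3 thus depended on the length used.

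Within each mouse, Edn3 took up more of the summed ligand transcripts in the HFD+mTAC group. Edn3 made up 11.2, 14.8, 18.2, 12.5 and 13.1% of the Edn1 and Edn3 TPM in the Control group, and 25.6, 39.0, 41.7, 27.8 and 31.3% in the HFD+mTAC group. The means were 13.9 ± 2.70% and 33.1 ± 7.0% (SD, n = 5 each), so Edn1 remained the more abundant ligand transcript in all 10 mice on this scale. With counts per base of the longest annotated transcript in place of TPM, Edn3 made up 23.6 ± 4.74% and 42.6 ± 8.27%, and it exceeded Edn1 in 1 mouse, TT-590 (55.9%), whose Edn1 was the lowest of all. The share depends on the length correction. The difference between the group means was 19.1 percentage points on the TPM scale and 19.0 with the longest transcript. It started from different Control shares (13.9 and 23.6%), so the relative difference was smaller with the longest transcript. These shares contain the Edn3 values that chose the gene and were not tested. The summed TPM of both ligands was 0.853 ± 0.163 in Control and 0.986 ± 0.222 in HFD+mTAC mice, with ranges that overlapped. In CPM, without the length correction, the sum was 15.2 ± 2.36 and 22.8 ± 2.27, with ranges that met only narrowly (13.3 to 19.2 and 19.1 to 25.1).

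The proportion of the receptors did not differ detectably. The ratio of Ednra to Ednrb TPM was 0.629, 0.535, 1.12, 0.959 and 1.02 in the Control group, compared with 0.820, 1.10, 0.545, 0.640 and 0.485 in the HFD+mTAC group. ETA transcripts exceeded ETB transcripts in 2 Control mice and 1 HFD+mTAC mouse. The mean log2 ratio differed by -0.26 (two-sided exact permutation test over all arrangements of 5 mice against 5, p = 0.397, adjusted over 2 ratios 0.635, smallest possible p 0.00794). The ratio of Ece1 to Ece2 TPM was 13.8 ± 3.81 in Control and 16.6 ± 7.08 in HFD+mTAC mice (SD, n = 5 each). Ece1 was the more abundant enzyme transcript in 10 of 10 mice, and the log2 ratio differed by 0.18 between the groups (exact permutation test, p = 0.635, adjusted 0.635).

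**Figure D2:**
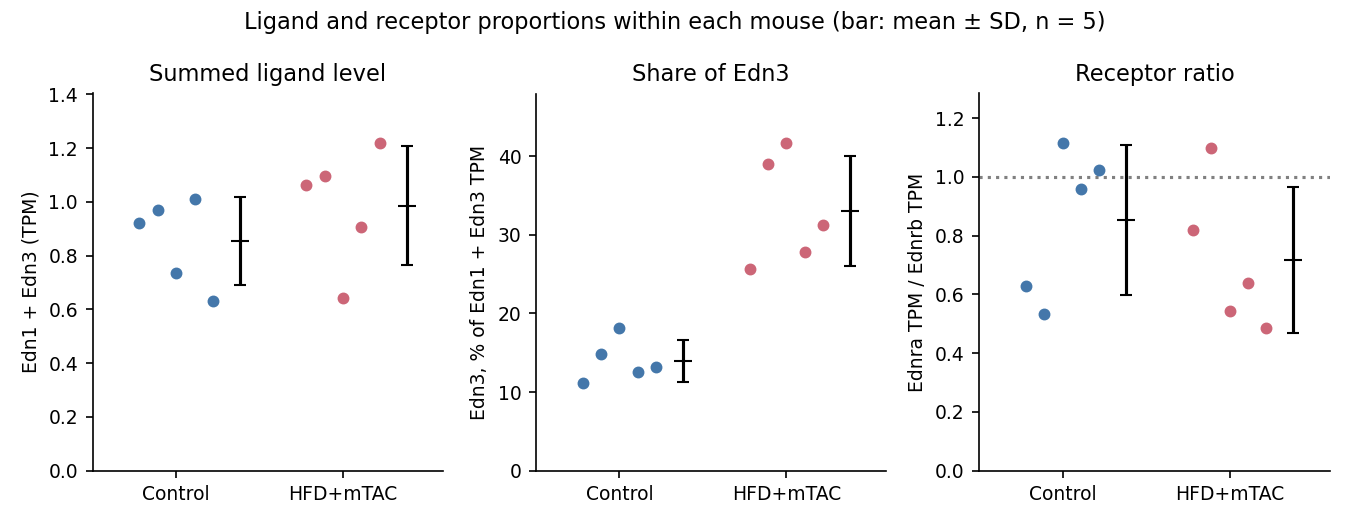
Summed Edn1 and Edn3 level (TPM), Edn3 as a percent of that sum, and the ratio of Ednra to Ednrb TPM (dotted line at 1) in each Control mouse (blue) and HFD+mTAC mouse (red), with the mean and SD of 5 mice as black bars. The share of Edn3 is apart between the groups (11.2 to 18.2% and 25.6 to 41.7%), whereas the summed level and the receptor ratio overlap.

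Effective transcript length is the length that the quantification assigns to a gene from the transcripts it finds and the read coverage along them. It was examined as a further measure. TPM values are derived from it, so for Edn3 it is not fully separate from the level that chose the family. For Edn3 it was 5605, 5646, 6512, 6448 and 6551 bases in Control mice, against 6668, 2862, 6175, 6792 and 5580 bases in the HFD+mTAC group. HFD+mTAC mouse TT-589 stood apart, with less than any other mouse, and the remaining 9 values lay above the longest Edn3 transcript of GENCODE M21 (3117 bases), which may not be the release behind the deposited values. Such values are not particular to Edn3, since the effective length exceeded the longest transcript in 43.1 to 51.2% of 12814 genes per mouse. They bear on the TPM scale: mouse TT-589 had the lowest Edn3 CPM of its group (9.44) and the highest Edn3 TPM (0.428). Edn3 thus differed between the groups on both scales, but the order of the HFD+mTAC mice depended on the scale.

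Ece1 showed the widest spread of effective length, with 2320, 2353, 2459, 4182 and 5501 bases in Control mice, against 2294, 2116, 5240, 3424 and 2799 bases in the HFD+mTAC group. The gene has 4 annotated transcripts, of which 3 encode protein, and is known for isoforms from alternative promoters that differ at the N terminus. Its coefficient of variation in Control mice was 3.51% in CPM but 45.1% in TPM, beside 42.5% in effective length, so levels of Ece1 in TPM are less precise than its counts. Ece2 had effective lengths of 958 to 1360 bases, far below its longest transcript (3445 bases), and has 7 annotated transcripts, the shortest of 719 bases. Edn1, with a single annotated transcript of 2139 bases, had 2085 to 2682 bases. Ednra had 4135 to 5048 bases (longest transcript 3625) and Ednrb 4341 to 5222 bases (longest transcript 4107). In limma on log2 effective length, adjusted over all genes, 0 of the 6 genes differed between the groups, and 0% of all genes did. The closest were Edn1 (log2 difference 0.14, adjusted p = 0.719, limma) and Ednra (log2 difference 0.09, adjusted p = 0.719, limma), both longer on average in HFD+mTAC mice, and at an unadjusted p under 0.05 it was also 0 of 6.

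**Figure D3:**
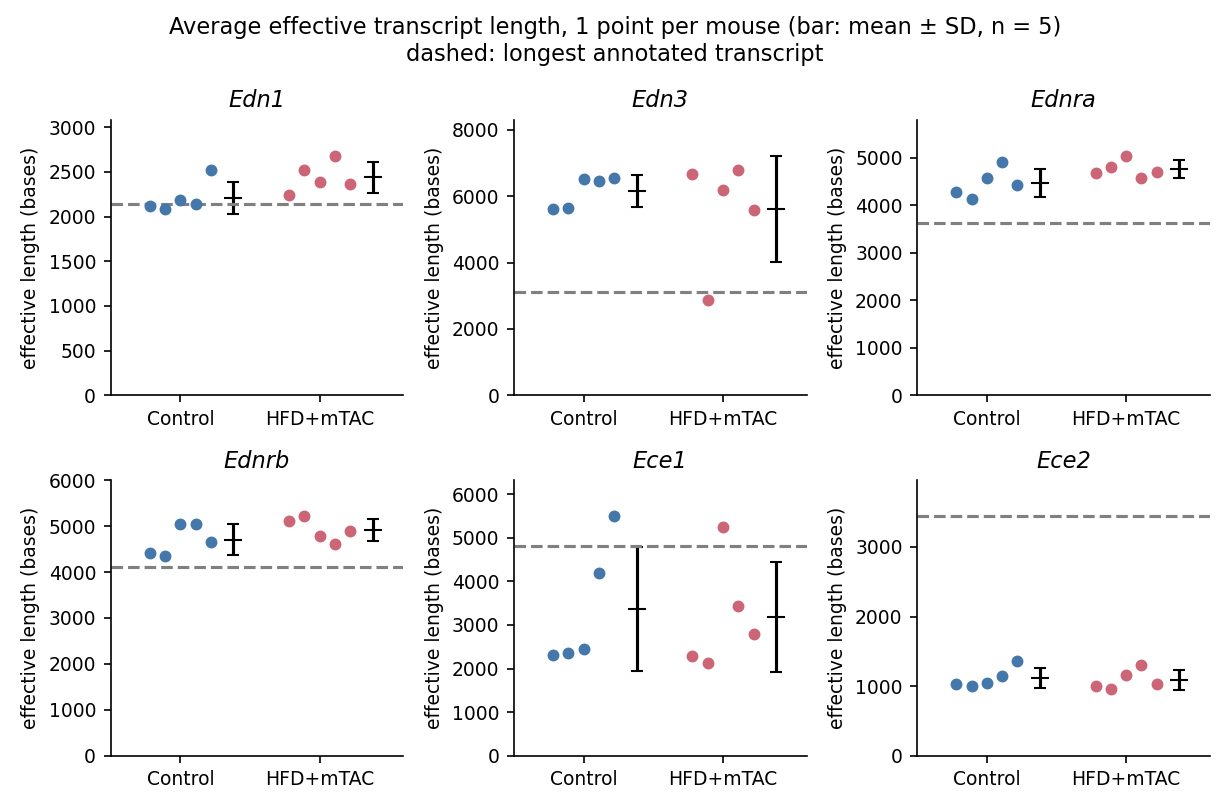
Effective transcript length in bases (linear axes from 0) of the 6 genes in each Control mouse (blue) and HFD+mTAC mouse (red), with the mean and SD of 5 mice as black bars and the longest annotated transcript as a dashed line. Edn3 lies above its longest transcript (3117 bases) in all mice but TT-589 (2862 bases), and Ece1 spans 2116 to 5501 bases.

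Genes that act before and after the receptors were followed in 5 lists of 60 genes, of which 55 were tested. The lists were chosen with earlier results of these data known, so their counts are descriptions. By edgeR 0 of 55 rose and 0 fell (0.0451 and 0.015% of all genes), 9 of 55 had an unadjusted p under 0.05 (8.26% of all genes), and the median log2 fold change was 0.04 (0.0016 over all genes). Above 0 were 34 genes and below 0 were 21. In 1 of the 55, Plcb1, the groups did not overlap, a share close to the 1.96% of all genes. Its values were 16.8 to 22.9 CPM in Control and 23.2 to 29.7 CPM in HFD+mTAC mice. Plcb1 encodes a phospholipase C beta, the enzyme that Gq proteins of endothelin receptors switch on to release inositol trisphosphate and diacylglycerol. Its log2 fold change was 0.43 (SE 0.11), which missed the threshold with edgeR (adjusted p = 0.261) and passed it with DESeq2 (adjusted p = 0.0381). It was the single gene of the lists called by DESeq2, which called 120 of 13300 genes in all. In simulated counts of 13300 genes with known changes, drawn with dispersions estimated by edgeR, DESeq2 called 32 unchanged genes and edgeR 7. Of 100 genes changed by a log2 fold change of 0.5, DESeq2 called 44 and edgeR 22. A call by DESeq2 alone is thus less certain, but edgeR also missed most changes of this size.

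Among genes of endothelin processing and clearance, 4 of 5 tested were above 0. Mme, which encodes neprilysin, a protease that degrades endothelins and natriuretic peptides, had 14.6 ± 3.47 CPM in Control and 21.6 ± 3.13 CPM in HFD+mTAC mice (SD, n = 5 each). Its log2 fold change was 0.57 (SE 0.16, adjusted p = 0.313 from edgeR). Ctsa, which encodes cathepsin A, had a log2 fold change of 0.08 (adjusted p = 0.839, edgeR). Cma1, a mast cell chymase gene, had a log2 fold change of -0.79 (SE 0.61, adjusted p = 0.799, edgeR) at a mean under 1 CPM. Mcpt4, another mast cell protease gene of this list, went the other way, with 0.26 (SE 0.36, adjusted p = 0.912, edgeR). Kel, whose product cuts big endothelin 3, had 0 to 1 estimated counts per mouse and was not tested.

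Among G protein genes, 7 of 9 were above 0. Gnao1 had a log2 fold change of 0.39 (SE 0.13, adjusted p = 0.402, edgeR) and Gna12 of 0.19 (adjusted p = 0.692, edgeR), whereas Gna13 had -0.11 and Gnai3 -0.10. Among 24 effectors tested, 14 were above 0. Beside Plcb1, Itpr3, which encodes an inositol trisphosphate receptor, had a log2 fold change of 0.42 (SE 0.12, adjusted p = 0.331, edgeR). Mylk, the gene of myosin light chain kinase, had a log2 fold change of -0.32 (SE 0.20, adjusted p = 0.723, edgeR). Itpr1 was listed at 0 in all mice, a value that may be a failed estimate.

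Desensitization genes had a median log2 fold change of 0.03, with 5 of 9 above 0. Grk5, a G protein-coupled receptor kinase gene, had a log2 fold change of 0.06 and the arrestin gene Arrb2 of 0.04, whereas Rgs2, which encodes an inhibitor of Gq signaling, had -0.15 and Arrb1 -0.10. Of 8 genes for regulators of Edn1 transcription, 4 were above 0. Fos, an AP-1 subunit gene, had 211 ± 71.0 CPM in Control and 115 ± 50.8 CPM in HFD+mTAC mice (SD, n = 5 each), and its log2 fold change was -0.88 (SE 0.29, adjusted p = 0.409 from edgeR). Hif1a had a log2 fold change of 0.23 (adjusted p = 0.714, edgeR), Vezf1 0.03 and Gata4 -0.09, so no regulator passed the test, as Edn1 itself did not.

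**Figure D4:**
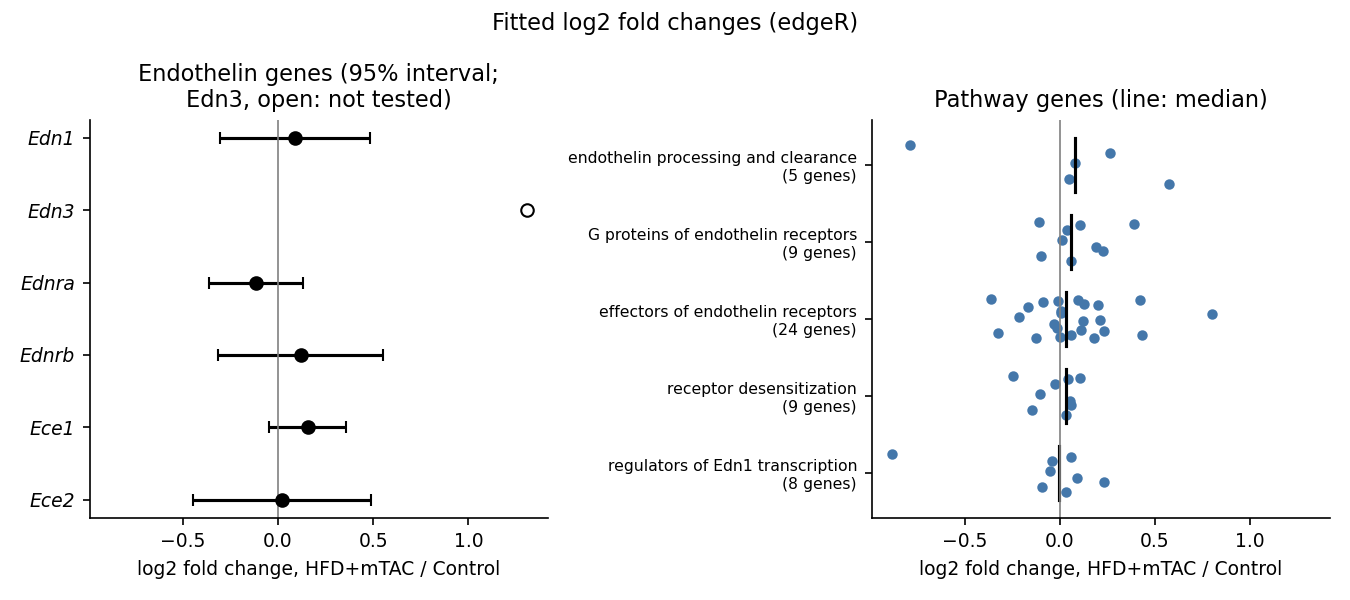
Left, fitted log2 fold change (HFD+mTAC over Control, edgeR) of each endothelin gene, with the 95% interval of those tested. Right, the log2 fold change of each tested gene in 5 pathway lists, with a line at the median of each list (height within a row carries no value). Edn3 (1.31, open point) is drawn without an interval because this contrast chose it, the intervals of the other 5 genes include 0, and the list medians lie between -0.003 and 0.079.

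Markers of the cells that could carry endothelin transcripts are given beside these levels. Of the genes in 12 marker lists 0 were called by edgeR, as were 0.0602% of all genes, so this count says little about them. Endothelial markers, of which 5 of 8 were above 0, summed to 86.7 to 160 TPM in Control and 68.1 to 145 TPM in HFD+mTAC mice, and endocardial markers (1 of 4 above 0) to 3.57 to 8.76 and 1.49 to 6.12 TPM. Fibroblast markers (4 of 7 above 0) summed to 117 to 188 and 98.5 to 162 TPM, smooth muscle and pericyte markers (1 of 6 tested above 0) to 26.7 to 55.1 and 19.4 to 43.8 TPM, and macrophage markers to 14.2 to 28.1 and 16.6 to 21.1 TPM. Schwann cell markers, cells of neural crest origin, were low, at 0.576 to 1.07 and 0.343 to 0.665 TPM, with 3 of 4 tested below 0. Each of these sums overlapped between the groups. The sum of atrial markers was lower without overlap (1.38 to 2.51 and 0.839 to 1.18 TPM), with Myl7 and Sln at 0 in some mice, but of the 2 tested Myl4 had a log2 fold change of -0.42 and Bmp10 of 1.36 (SE 0.49, adjusted p = 0.46 from edgeR). That of cardiomyocyte markers was 15945 to 19536 and 13732 to 16058 TPM (1 of 7 above 0). Conduction (5.45 to 6.12 and 3.85 to 8.14 TPM), mast cell (0.356 to 1.77 and 0.276 to 1.58), mesothelial (0.937 to 6.03 and 2.14 to 4.71, Msln at 0) and adipocyte markers (0.0328 to 0.511 and 0.00405 to 0.322) overlapped between the groups. The part of cell makeup in the Edn3 difference was not tested.

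The genes most like each member across mice were sought among 10101 genes with a mean of at least 5 CPM, by Pearson's r of log2 CPM over 10 mice that share their libraries, as a description. Over all 10 mice, where the group difference enters, those most like Edn3 were Htatip2 (r = 0.943), which also had a log2 fold change of 1.41, Cad (r = 0.940), Slc12a4 (r = 0.940), Foxk1 (r = 0.932) and Dhdds (r = 0.930). After removal of the group means the closest to Edn3 were Hn1l (r = 0.904), Dnajc4 (0.896), Pld3 (0.895), Pla2g5 (0.876) and Rpl18 (0.870), none of which was among the 5 closest before. The genes closest to the other members after removal of the group means were Tep1 for Edn1 (r = 0.906), Ikzf5 for Ednra (0.941), Litaf for Ednrb (0.960), Adcy4 for Ece1 (0.975) and Upp1 for Ece2 (0.973). Next in order came Phlpp2 (0.905) and Papss1 (0.886) for Edn1, Brd1 (0.933) and Camk2g (0.931) for Ednra, Tnfrsf12a (0.948) and Elf4 (0.942) for Ednrb, Ltbp4 (0.975) and Snf8 (0.961) for Ece1, and Cacnb1 (0.933) and Fam45a (0.929) for Ece2. No member was among the genes named for another. Between the members themselves, r ranged from -0.51 (Edn1 and Ece2) to 0.62 (Ednrb and Ece2), and it was -0.04 between the ligand genes.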

How the data were processed

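Left ventricular polyA RNA of 10 mice was sequenced from stranded libraries. The authors quantified reads with Salmon 1.6.0 on GENCODE transcripts of GRCm38 and summed them to genes with tximport. The submitters' processing notes name hg38, and the methods and the labels differ on read length and pairing, whereas the deposited symbols are those of the mouse. The authors deposited estimated counts without normalization (20.07% of values not whole), effective transcript lengths averaged per gene, and TPM values, whose sums over the genes listed were 94.8 to 96.6% of the nominal total. Symbols were matched to GENCODE M21 (27812), older symbols (863) or RefSeq (44), and 845 were not matched.

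Counts were rounded. Nuclear protein-coding genes that had 1 count or more in 9 of 10 mice (90%) entered edgeR 4.0.16 under R 4.3.3, with TMM scaling, its quasi-likelihood test and a threshold of 0.05 on the adjusted p, with all 10 mice and no covariate. Lengths were tested with limma 3.58.1. Alternatives were DESeq2 1.42.0, limma on log2(TPM + 1) and log2(TPM + 0.1), other normalizations, filters and biotypes, lengths as an offset, the robust fit and the omission of each mouse. Scripts were tested on simulated data. Ratios, motifs and figures were made in Python 3.11.15. Named genes were the 6 members, of each pathway list the 2 genes with the smallest p in each direction, and the genes most like each member. A gene that this rule selects is not reported here. Members and lists were chosen with earlier results of these data known. The values of Edn2, Kel, Itpr1 and Mcpt4 are given in addition. Each mouse was 1 library, and the number of counts limits precision.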

Additional observations from a re-analysis of the deposited data

Results flagged for a closer look

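In 40 groups of 5 values (CPM, TPM and effective length of each member, and the log2 ratios) 4 held a value far from the others by Dixon's test at its 95% level, and chance flags about 1 in 20 groups. Edn1 stood out in both groups, with 13.5 CPM in Control mouse TT-586 (nearest value 10.2) and 6.69 CPM in HFD+mTAC mouse TT-590 (nearest value 11.5). The effective length of Edn1 was 2523 bases in Control mouse TT-587 (nearest value 2189). Edn3 was 9.44 CPM in HFD+mTAC mouse TT-589 (nearest value 11.8), the mouse whose Edn3 effective length was also the shortest.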

How the results depend on the processing

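The 6 log2 fold changes were recomputed under 10 settings and with each of 10 mice left out, 120 values in all. Of the 100 values of the 5 genes tested, 92 kept their direction, 8 changed sign and 0 passed the threshold. Of the 20 values of Edn3, which has no test, 19 stayed within the spread between mice and 1 moved. Edn1 was -0.0066 with limma on log2(TPM + 1), -0.014 with limma on log2(TPM + 0.1) and -0.035 with effective lengths as an offset. Edn3 was 0.91 with limma on log2(TPM + 1), where the pseudocount makes the change of low genes smaller, and otherwise up to 1.57. With each mouse left out, Edn1 ranged from 0.021 to 0.22, Edn3 from 1.20 to 1.41, Ednra from -0.20 to -0.045 and Ednrb from -0.031 (without mouse TT-592) to 0.28. Ece2 ranged from -0.12 to 0.13 (below 0 without TT-585, TT-587, TT-590 or TT-592). Ece1 ranged from 0.088 to 0.20, with an unadjusted p (edgeR) of 0.045 without TT-589 (adjusted p = 0.628). Log2 differences of effective length then ranged from -0.27 to 0.13 for Ece1, from -0.10 to 0.036 for Ece2 and from -0.28 to 0.034 for Edn3 (above 0 without mouse TT-589). For Edn1 they ranged from 0.11 to 0.19, with an unadjusted p (limma) of 0.0093 without TT-587 and 0.037 without TT-588. For Ednra they ranged from 0.068 to 0.13, with an unadjusted p (limma) of 0.021 without TT-586. The lowest adjusted p of these lengths was 0.36 (Ednra, limma, without TT-586). The receptor log2 ratio ranged from -0.42 to -0.13 and the enzyme log2 ratio from 0.01 to 0.45. Adjusted p-values of the log2 fold changes over these alternatives ranged from 0.759 to 0.996 for Edn1, 0.728 to 0.952 for Ednra, 0.814 to 0.985 for Ednrb, 0.628 to 0.909 for Ece1 and 0.924 to 0.999 for Ece2.

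Over all genes, 8 were called with edgeR, 120 with DESeq2 (62 higher and 58 lower, the 8 among them), and 1 with limma on either TPM scale or with lengths as an offset. Leaving out a mouse gave 1 to 9, with 1 without TT-584, TT-586, TT-587, TT-588, TT-590 or TT-592, 2 without TT-585 and 3 without TT-589. The cause was not tested. DESeq2 called 1 of 55 pathway genes. The difference in the Edn3 share was 17.6 percentage points without mouse TT-589, a setting chosen after seeing the data, as was the share per base of the longest transcript. No paired analysis was possible because the groups share no replicate number. Counts of 51 to 202 per mouse limit the precision of Edn3.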
